A study of Mus musculus with 19 samples.

Results

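Complement is a cascade of plasma and tissue proteins that tags and clears microbes and damaged cells, and 9 genes of it were followed in mouse plantaris tendon, a tendon of the hindlimb. They were taken by name as C1ra, C1s1, C4b, C2, C3, Cfb, Serping1, C3ar1 and C5ar1, which are components, a regulator and receptors of the cascade. They make up 9 of the 24972 genes listed, and all 9 passed the filter on low values that left 16625 genes for testing. The study sequenced total RNA of 19 tendon samples and asked how loss of scleraxis, the tendon transcription factor encoded by Scx and per the title deleted in the Scx- mice, bears on the growing tendon. The groups were Scx- mice given tamoxifen and a growth stimulus for 7 days, Scx+ mice with the same 7-day treatment, Scx- and Scx+ mice with 14 days of it (n = 4 libraries in each of these 4 groups), and unstimulated Scx+ control mice without tamoxifen (n = 3). The labels give neither the alleles and the driver of the deletion, nor the kind of stimulus, the strain, the sex or the age. No group of unstimulated Scx- mice and none of unstimulated mice with tamoxifen was included, so in every comparison with the controls the stimulus cannot be told apart from tamoxifen, nor, for Scx- mice, from the genotype. No label says that replicates came from different animals, so p-values measure the spread between these samples, which may be technical.

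As background, the classical pathway starts when C1q binds its target and activates the serine proteases C1r and C1s, which cleave C4 and then C2. The C4 and C2 fragments form an enzyme that cleaves C3, the central component, and factor B (Cfb) forms with C3b the corresponding enzyme of the alternative pathway. C1 inhibitor (Serping1) blocks C1r and C1s, and the small fragments C3a and C5a act on the receptors C3ar1 and C5ar1, which myeloid cells such as macrophages carry. The liver makes most complement protein of the plasma, while fibroblasts and macrophages make it locally.

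Upstream windows of 3 of the genes are shown because they stand for 3 patterns described below: C3ar1 had the largest difference from the controls, C1s1 was higher in every stimulated group, and C3 passed no test. Each is the 250 bases before the annotated start site, from RefSeq on GRCm38.p6, all on chromosomes 6 and 17 and on the minus strand, written 5′ to 3′ along the gene. Capitals mark a match to the C/EBP core TTGCNNAA on either strand, and a window without capitals holds no match.
C3ar1, chr6:122856158-122856407: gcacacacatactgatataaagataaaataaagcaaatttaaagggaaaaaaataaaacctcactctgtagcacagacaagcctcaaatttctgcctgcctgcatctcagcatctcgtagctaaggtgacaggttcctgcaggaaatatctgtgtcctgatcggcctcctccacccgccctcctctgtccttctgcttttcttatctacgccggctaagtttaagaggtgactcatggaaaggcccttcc
C1s1, chr6:124542360-124542609: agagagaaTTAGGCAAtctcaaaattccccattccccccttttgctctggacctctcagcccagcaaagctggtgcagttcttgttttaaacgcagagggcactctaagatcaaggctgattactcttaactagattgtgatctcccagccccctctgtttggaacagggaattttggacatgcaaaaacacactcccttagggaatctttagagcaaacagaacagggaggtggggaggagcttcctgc
C3, chr17:57228137-57228386: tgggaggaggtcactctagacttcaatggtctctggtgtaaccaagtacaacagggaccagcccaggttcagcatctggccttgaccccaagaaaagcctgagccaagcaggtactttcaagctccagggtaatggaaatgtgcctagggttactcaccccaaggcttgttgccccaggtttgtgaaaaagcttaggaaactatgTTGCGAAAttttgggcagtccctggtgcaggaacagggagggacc
The match in C3 is TTGCGAAA at positions −45 to −38 from the start site, and that in C1s1 is TTAGGCAA at positions −242 to −235. Of the 32851 mouse promoter windows of this length in the table, 9.56% held the C/EBP core. The core of the interferon-stimulated response element (2.98% of windows), the gamma-activated site TTCNNNGAA (7.02%), the NF-kB site (0.356%) and the PU.1 core GAGGAAGT (2.44%) were also searched on both strands. Their letters occurred in none of the 3 windows shown. The 4 bases of the C3ar1 window nearest the start lie within a GENCODE exon. The windows of C1ra, of C5ar1 and of a second C1s1 start lie partly inside annotated exons and are not shown, and the table was not used for C4b, C2, Cfb and Serping1.

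The deposited values are a scaled signal, so their depth in reads is unknown and counting intervals cannot be given. They summed to 36.6 to 48.5 M units (mega, per library) in the stimulated libraries and 67.8 to 79.8 M in the controls, and were rescaled here by medians of ratios. Scx itself held 1.66 to 17.2 units in the 8 Scx- libraries, against 2096 to 8044 in the 8 stimulated Scx+ libraries, and 319 to 593 in the controls. The 14 tendon lineage markers, none of which was at 0 in all libraries, made up 4.87 to 7.4% (Scx-) and 7.03 to 10.7% (Scx+) of a library's signal at day 7, 1.48 to 8.45% (Scx-) and 7.08 to 10.6% (Scx+) at day 14, and 0.335 to 1.08% in the controls. Skeletal muscle genes took 0.425 to 6.76% in Scx- and 0.0559 to 2.36% in Scx+ libraries at day 7, 4.65 to 20.3% (Scx-) and 0.303 to 9.39% (Scx+) at day 14, and 26.1 to 31.3% in the controls.

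Against the controls, 6 of the complement genes were higher in each of the 4 stimulated groups: the proteases C1ra, C1s1 and C2, factor B (Cfb) and both receptors, C3ar1 and C5ar1. C3 and C4b passed the test in none of the 4 groups, and Serping1 passed it only in Scx- mice at day 14 (limma, Benjamini-Hochberg adjustment over all 16625 genes, threshold 0.05). In Scx- mice at day 7, 6 of 9 were higher, where 32.3% of all tested genes were higher. In Scx+ mice at day 7, 6 of 9 were higher, where 33.8% of all tested genes were. In Scx- mice at day 14, 7 of 9 were higher, against 25.5% of all tested genes, and in Scx+ mice at day 14, 6 of 9, against 30.9%. The median log2 difference over the 9 genes was 1.61, 0.99, 1.06 and 1.18 in Scx- day 7, Scx+ day 7, Scx- day 14 and Scx+ day 14, while over all tested genes it was 0.14, 0.18, 0.12 and 0.15. Over 40 other complement genes, described below, it was 0.40, 0.50, 0.46 and 0.53. The 9 genes, like all gene lists here, were chosen with earlier results of these data known, so their excess is no independent result. These 4 comparisons share the same 3 control libraries. Separation from them was common: 30.8, 33.4, 20.7 and 26.9% of all tested genes were higher without overlap, in the same order of groups. Lower without overlap were 27.3, 28.9, 17.4 and 25%. The summed share of the 9 genes in a library's signal was 0.199 ± 0.046% in Scx- mice and 0.143 ± 0.011% in Scx+ mice at day 7. It was 0.204 ± 0.091% in Scx- mice and 0.180 ± 0.028% in Scx+ mice at day 14 (SD, n = 4 each), and 0.0886 ± 0.0169% in the controls (SD, n = 3). These shares are of library totals, which were 67.8 to 79.8 M units in the controls and averaged 42.0 to 46.5 M in the stimulated groups. A gene of equal rescaled signal thus has a larger share in a stimulated library, here and for the marker lists. On the rescaled signal, C4b, C3 and Serping1 averaged 7715, 9157 and 19171 units in Scx+ mice at day 7. Their control averages were 13575, 11712 and 24467, while the 6 genes named above were higher.

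**Figure D1:**
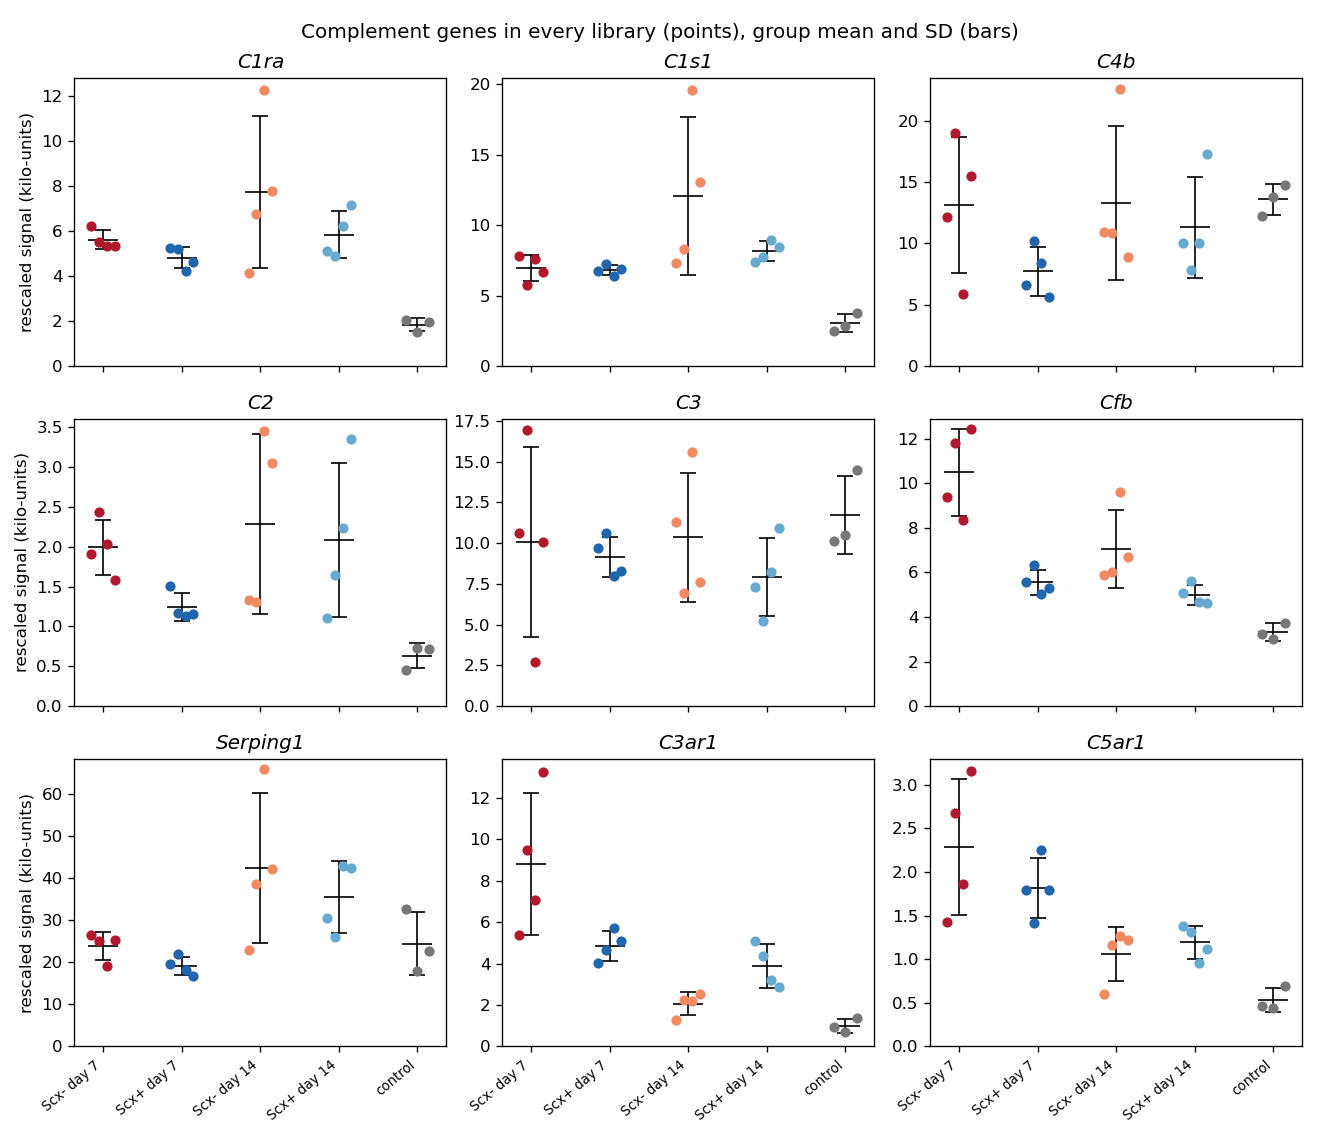
Rescaled signal (kilo-units, axis from 0) of the 9 complement genes in each of the 19 libraries, 1 panel per gene. Points are libraries, bars the group mean and SD; the receptors C3ar1 and C5ar1 average lowest in the controls, while for C3 all 4 stimulated groups overlap the controls.

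The C1 proteases were raised in all stimulated groups. C1ra, the gene of complement C1r, held 6227, 5542, 5357 and 5361 units in Scx- libraries at day 7 and 5239.8, 5204, 4244 and 4636 in Scx+ libraries at day 7. At day 14 it held 4150.5, 6779.8, 12269 and 7770.4 in Scx- and 5129.5, 4888, 6216 and 7168 in Scx+ libraries, and the controls held 2048, 1533 and 1953. Every stimulated library lay above every control, and the Scx- libraries at day 14 spread the most, replicate 3 being highest and replicate 1 lowest. C1ra was higher than in the controls by 1.61 ± 0.25 log2 units in Scx- (adjusted p = 3.63e-05, limma) and 1.39 ± 0.25 in Scx+ mice at day 7 (adjusted p = 0.000129). At day 14 the difference was 1.97 ± 0.25 in Scx- (adjusted p = 1.55e-05) and 1.66 ± 0.25 in Scx+ mice (adjusted p = 3.59e-05).

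C1s1, the gene of the protease C1s, held 7804, 5725, 7568 and 6706 units in Scx- and 6749.9, 7239, 6397 and 6911 in Scx+ libraries at day 7. It held 7305, 8329.7, 19558 and 13043 in Scx- and 7391, 7759.9, 8962 and 8465 in Scx+ libraries at day 14, and 2520.4, 2851 and 3740.5 in the controls. Here too no stimulated library overlapped the controls, and Scx- replicates 3 and 4 at day 14 stood above all others. The differences from the controls were 1.20 ± 0.25 and 1.19 ± 0.25 log2 units in Scx- and Scx+ mice at day 7, and 1.90 ± 0.25 and 1.44 ± 0.25 in Scx- and Scx+ mice at day 14 (adjusted p = 0.00054, 0.000536, 2.34e-05 and 0.000131, limma). C1ra and C1s1 lie on chromosome 6 (GRCm38), C1ra at 124512405 to 124523443 on the plus strand and C1s1 at 124530345 to 124542359 on the minus strand, 6.9 kb apart. The mouse has a near copy of each, and 48.0% of the 50-base stretches of C1ra occur in C1rb and 21.8% of those of C1s1 in C1s2. C1rb held at most 28.5 units in any library, and how reads that fit both copies were assigned is not stated, so the levels of the C1ra and C1s1 rows are uncertain to that extent.

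Of the genes of the next step, C2 was higher after the stimulus and C4b was not. C2, the gene of the protease that joins C4b in the classical C3 convertase, held 1908, 2428, 2035 and 1587 units in Scx- and 1502, 1172, 1132 and 1150.5 in Scx+ libraries at day 7. It held 1330.3, 1309.8, 3454 and 3045 in Scx- and 1103, 1641, 2235 and 3353 in Scx+ libraries at day 14, and 451, 733 and 712 in the controls. No stimulated library reached down to the controls. At day 14 Scx- replicates 1 and 2 lay well below replicates 3 and 4, and the Scx+ replicates were spread as widely. C2 was higher than in the controls by 1.67 ± 0.36 log2 units in Scx- mice at day 7 (adjusted p = 0.000803, limma), 0.99 ± 0.36 in Scx+ mice at day 7 (adjusted p = 0.0238), 1.74 ± 0.36 in Scx- mice at day 14 (adjusted p = 0.00104) and 1.63 ± 0.36 in Scx+ mice at day 14 (adjusted p = 0.00105). In Scx+ mice at day 7 the call was lost without control replicate 1 (0.77, adjusted p = 0.111, limma) or Scx+ day 7 replicate 1 (0.90, adjusted p = 0.0598).

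C4b, the mouse gene of complement C4, held 12155, 18952, 5894 and 15489 units in Scx- and 6615, 10191, 8434 and 5619 in Scx+ libraries at day 7. It held 10896, 10836, 22587 and 8865 in Scx- and 10043, 7812, 10059 and 17246 in Scx+ libraries at day 14, and 12251, 13756 and 14718 in the controls. In 3 of the stimulated groups C4b overlapped the controls. All 4 Scx+ libraries at day 7 lay below the lowest control, as was so for 28.9% of all tested genes. That difference, −0.85 ± 0.37 log2 units, missed the threshold (adjusted p = 0.0547, limma, 95% interval −1.62 to −0.07), and it passed without Scx+ day 7 replicate 2 (−0.99, adjusted p = 0.0402) and in a fit of only these 2 groups (adjusted p = 0.00697, limma). In Scx- mice at day 7, Scx- mice at day 14 and Scx+ mice at day 14 the differences were −0.17, −0.13 and −0.33, with adjusted p of 0.712, 0.802 and 0.467 (limma). Of the 50-base stretches of C4b, 34.6% occur in C4a, its neighbour 65.2 kb away on chromosome 17, so the split of reads between the pair is uncertain.

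C3 and Cfb, which together build the C3-cleaving enzyme of the alternative pathway, behaved differently. C3, the central component of the cascade, held 10641, 16931, 2706 and 10078 units in Scx- and 9712, 10627, 8006 and 8282 in Scx+ libraries at day 7. It held 11281, 6972, 15593 and 7592 in Scx- and 7329, 5208, 8223 and 10954 in Scx+ libraries at day 14, and 10132, 10533 and 14472 in the controls. Scx- replicate 3 at day 7 was the lowest of all 19 libraries and replicate 2 of the same group the highest, and all 4 stimulated groups overlapped the controls. The differences from the controls were −0.47 ± 0.44 and −0.35 ± 0.44 log2 units in Scx- and Scx+ mice at day 7 and −0.23 ± 0.44 and −0.59 ± 0.44 in Scx- and Scx+ mice at day 14, with adjusted p between 0.264 and 0.69 (limma). In Scx+ mice at day 14 the 95% interval ran from −1.53 to 0.34. Without Scx- day 7 replicate 3 the first of these differences was 0.078 (adjusted p = 0.844, limma).

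Cfb, the gene of factor B, held 9367, 11799, 8353 and 12426 units in Scx- and 5583, 6338, 5034 and 5305 in Scx+ libraries at day 7. It held 5906, 6001, 9622 and 6716 in Scx- and 5066, 5625, 4655 and 4647 in Scx+ libraries at day 14, and 3235, 3001 and 3755 in the controls. No stimulated library overlapped the controls, and all 4 Scx- libraries lay above all 4 Scx+ libraries on each day. Cfb was higher than in the controls by 1.64 ± 0.18 log2 units in Scx- and 0.74 ± 0.18 in Scx+ mice at day 7 (adjusted p = 1.12e-06 and 0.00159, limma). At day 14 it was higher by 1.06 ± 0.18 in Scx- and 0.59 ± 0.18 in Scx+ mice (adjusted p = 0.000191 and 0.00945). Cfb (34856374 to 34862518) and C2 (34862604 to 34898265) follow each other on the minus strand of chromosome 17, 85 bases apart, and both overlap the annotated gene Gm20547. Whether counting used the strand is not stated.

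Serping1, the gene of C1 inhibitor, held 26499, 24996, 19055 and 25306 units in Scx- and 19675, 21940.0, 18304 and 16765 in Scx+ libraries at day 7. It held 22866, 38719, 65941 and 42130.0 in Scx- and 30594, 25926, 43017 and 42534 in Scx+ libraries at day 14, and 32735, 18053 and 22613 in the controls. Each stimulated group overlapped the controls. Serping1 differed from the controls by 0.00 ± 0.29 log2 units in Scx- and −0.31 ± 0.29 in Scx+ mice at day 7 (adjusted p = 0.995 and 0.355, limma), and by 0.55 ± 0.29 in Scx+ mice at day 14 (adjusted p = 0.115). In Scx- mice at day 14 it was higher by 0.74 ± 0.29 (adjusted p = 0.0467, limma). That call was lost when any one of Scx- day 14 replicates 2, 3 or 4 or control replicates 2 or 3 was left out (adjusted p 0.0591, 0.154, 0.0907, 0.199 and 0.112, limma), and in Scx+ mice at day 14 the difference passed without control replicate 1 (0.78, adjusted p = 0.0459) and with library totals (1.16, adjusted p = 0.00492). The Scx- call was also lost on the values as deposited (0.40, adjusted p = 0.259), without a filter (adjusted p = 0.0573), without robust moderation (adjusted p = 0.0525) and in a fit of only these 2 groups (adjusted p = 0.199, limma). Per kilobase of annotated exon, Serping1 had the highest mean level of the 9 genes in all 5 groups, at 10307 units per kb in Scx- and 8246 in Scx+ mice at day 7, 18243 in Scx- and 15276 in Scx+ mice at day 14, and 10523 in the controls. On the same scale C1s1 followed at day 14 with 3854 in Scx- and 2603 in Scx+ mice, and Cfb in Scx- mice at day 7 with 3712. In the controls C4b (2384) and C3 (2277) came next, and their library ranges overlapped. The lowest mean level was that of C2 at day 7 and in the controls and that of C5ar1 at day 14.

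Both receptors were higher in every stimulated group, with larger estimates than the other members at day 7. C3ar1, the receptor of C3a, held 5402, 9512, 7061 and 13260.0 units in Scx- and 4011, 4652, 5706 and 5079 in Scx+ libraries at day 7. It held 1270.4, 2258, 2183 and 2529 in Scx- and 5115, 4382, 3204 and 2852 in Scx+ libraries at day 14, and 926, 681 and 1360.0 in the controls. Only the Scx- group at day 14 overlapped the controls, through its replicate 1. C3ar1 was higher than in the controls by 3.13 ± 0.31 log2 units (8.75-fold) in Scx- mice at day 7 (adjusted p = 4.21e-07, limma) and 2.34 ± 0.31 in Scx+ mice at day 7 (adjusted p = 6.5e-06). At day 14 it was higher by 1.07 ± 0.31 in Scx- (adjusted p = 0.00944) and 1.99 ± 0.31 in Scx+ mice (adjusted p = 4.61e-05), and the first of these calls was lost without control replicate 2 (0.83, adjusted p = 0.0636, limma).

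C5ar1, the receptor of C5a, held 1429, 2671, 1867 and 3157 units in Scx- and 1794, 1419, 2249 and 1796 in Scx+ libraries at day 7. It held 604, 1165, 1263 and 1224 in Scx- and 1381, 1309, 961 and 1116 in Scx+ libraries at day 14, and 463, 437 and 691 in the controls. As with C3ar1, only Scx- replicate 1 at day 14 fell into the range of the controls. C5ar1 was higher by 2.07 ± 0.28 log2 units in Scx- and 1.78 ± 0.28 in Scx+ mice at day 7, and by 0.97 ± 0.28 in Scx- and 1.18 ± 0.28 in Scx+ mice at day 14 (adjusted p = 1.24e-05, 4.52e-05, 0.0105 and 0.00202, limma). In Scx- mice at day 14 the call was lost without control replicate 2 (0.85, adjusted p = 0.0512, limma), on the values as deposited (0.64, adjusted p = 0.0728) and in a fit of only these 2 groups (adjusted p = 0.0517). On the values as deposited C3ar1 in that group also missed the threshold (0.73, adjusted p = 0.0568, limma).

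**Figure D2:**
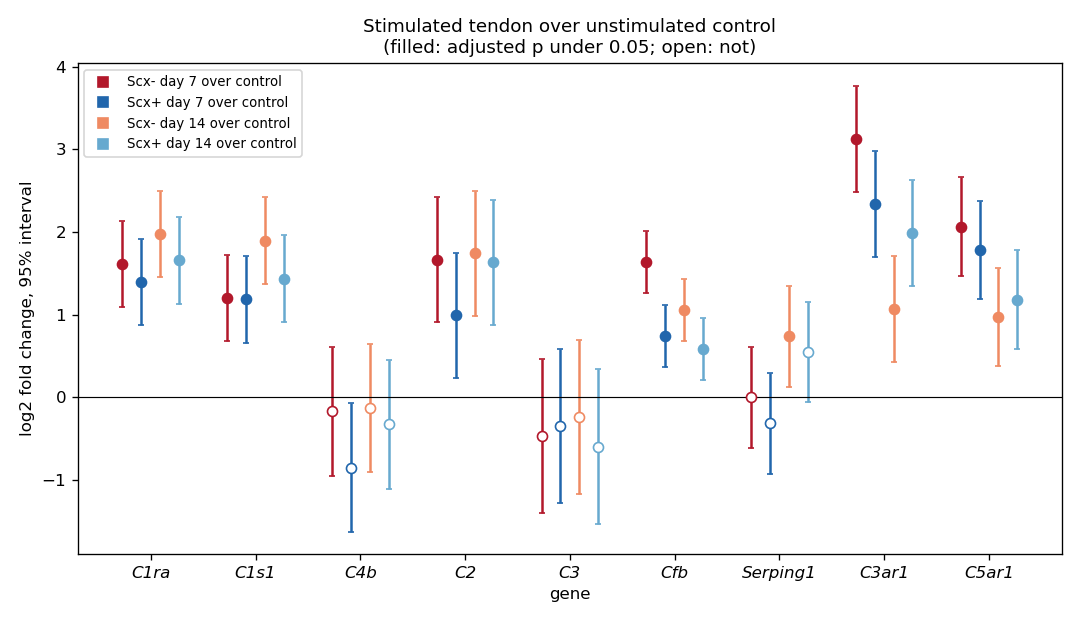
Log2 difference from the controls, with its 95% interval, for the 9 complement genes in each of the 4 stimulated groups; filled points passed an adjusted p of 0.05 (limma). C1ra, C1s1, C2, Cfb, C3ar1 and C5ar1 are above 0 in all 4 groups and C3 and C4b pass in none.

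Macrophage markers moved with the receptors. The 18 genes of the macrophage and monocyte list, none of which was at 0 in any library, made up 0.334 to 0.772% (Scx-) and 0.258 to 0.397% (Scx+) of a library's signal at day 7, 0.114 to 0.309% (Scx-) and 0.175 to 0.289% (Scx+) at day 14, and 0.0385 to 0.0852% in the controls. Of these 18 genes, 17 were higher than in the controls in each genotype at day 7, 11 in Scx- and 14 in Scx+ mice at day 14. In bulk RNA, more cells of a type and more RNA of a gene per cell cannot be told apart. With the mean of this list as a covariate, a fit chosen after seeing the data, C3ar1 differed from the controls by 0.22, 0.041, −0.28 and 0.46 and C5ar1 by −0.39, −0.16, −0.17 and −0.11 log2 units in Scx- day 7, Scx+ day 7, Scx- day 14 and Scx+ day 14, and none passed. In the same fit 198, 1882, 2522 and 3676 of all tested genes passed, against 9677, 10192, 7291 and 9293 without the covariate. C1ra, C1s1 and C2 still passed in both genotypes at day 14 in that fit (C1ra 1.83 in Scx- and 1.5 in Scx+ mice), and no complement gene passed at day 7. The lost calls did not all go with smaller estimates. At day 7 C2 differed by 2.37 in Scx- and 1.55 in Scx+ mice with the covariate (against 1.67 and 0.99 without it), C1ra by 1.32 and 1.16 (against 1.61 and 1.39), and C1s1 by 1.01 and 1.04 (against 1.20 and 1.19), with adjusted p between 0.172 and 0.414 (limma). Cfb differed by 0.84 in Scx- and 0.11 in Scx+ mice at day 7 (adjusted p = 0.28 and 0.861, limma).

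Skeletal muscle genes were set beside the same comparisons. Of 22 such genes, 14 were lower and 1 higher than in the controls in Scx- and 19 lower and 1 higher in Scx+ mice at day 7, where 25.9% and 27.5% of all tested genes were lower. At day 14, 1 was lower and 2 were higher in Scx- and 15 lower and 1 higher in Scx+ mice, where 18.3% and 25% of all tested genes were lower. With the mean of that list as a covariate, 6 of the 9 complement genes passed as higher in Scx- mice at day 7, 4 in Scx+ mice at day 7, 6 in Scx- mice at day 14 and 5 in Scx+ mice at day 14. The share of all tested genes that passed in that fit is not given here, so these counts have no background to be read against. Cfb lost its call in Scx+ mice on both days (0.40 at day 7, adjusted p = 0.199, and 0.39 at day 14, adjusted p = 0.0993, limma), and so did C2 in Scx+ mice at day 7 (1.14, against 0.99 without the covariate, adjusted p = 0.103) and Serping1 in Scx- mice at day 14 (0.66, against 0.74, adjusted p = 0.068). The C2 estimate was larger with the covariate than without it, although its call was lost. The 12 fibroblast markers made up 0.586 to 0.905% (Scx-) and 0.612 to 0.934% (Scx+) of a library's signal at day 7, 0.453 to 1.81% (Scx-) and 0.7 to 1.3% (Scx+) at day 14, and 0.365 to 0.624% in the controls, and their part in the results was not tested. Hepatocyte markers, checked because liver is the main source of complement, reached at most 0.0248% of any library's signal, 6 of 10 were under the filter, and Fgb was at 0 in all 19 libraries.

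**Figure D3:**
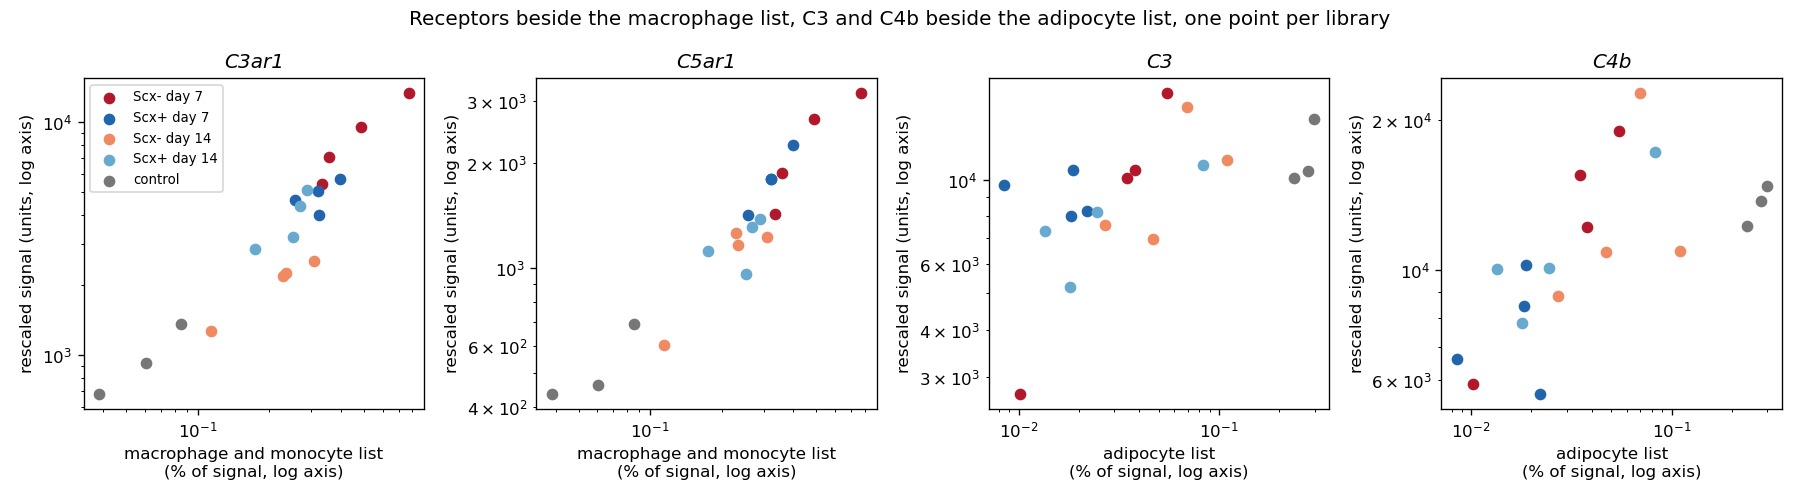
Rescaled signal of C3ar1 and C5ar1 against the share of signal in the macrophage and monocyte list, and of C3 and C4b against that in the adipocyte list, with log axes and 1 point per library colored by group. The controls lie at the lowest macrophage shares (0.0385 to 0.0852%) and at the highest adipocyte shares (0.237 to 0.298%).

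The effect of the deletion was compared in stimulated mice on each day. At day 7, 1 of 9 complement genes, Cfb, was higher in Scx- than in Scx+ mice, where 0.433% of all tested genes were higher and 0.337% were lower, and at an unadjusted p under 0.05 there were 2 of 9 (C3ar1 and Cfb), against 7.26% of all tested genes. Cfb averaged 10486 ± 1940.1 units in Scx- and 5565 ± 562 in Scx+ mice (SD, n = 4 each), a difference of 0.90 ± 0.16 log2 units or 1.87-fold (adjusted p = 0.0117, limma, without overlap between the groups). Without Scx- day 7 replicate 2 the difference was 0.84 and missed the threshold (adjusted p = 0.0604), and with the macrophage covariate it was 0.73 (adjusted p = 0.0985, limma). Of the 23 genes of the interferon-induced list, 15 were also higher in Scx- mice at day 7. At day 14 none of the 23 passed between the genotypes, where 0.517% of all tested genes did. There 1 of the 23 was above 0 and their median was −0.53 log2 units, while Cfb was 0.47. That list made up 0.127 to 0.344% (Scx-) and 0.0427 to 0.0907% (Scx+) of a library's signal at day 7, and its part in the result was not tested.

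C2 at day 7 averaged 1989 ± 348 units in Scx- and 1239 ± 176 in Scx+ mice and C1ra 5622 ± 413 in Scx- and 4831 ± 479 in Scx+ mice (SD, n = 4 each). Both genes were without overlap between the genotypes and higher in Scx-, as Cfb was, which makes 3 of 9 genes, against 3.71% of all tested genes. Their differences of 0.68 ± 0.33 and 0.22 ± 0.23 log2 units missed the threshold (adjusted p = 0.722 and 0.903, limma). C3ar1 averaged 8809 ± 3414 units in Scx- and 4862 ± 713 in Scx+ mice, a difference of 0.79 ± 0.28 with overlap (adjusted p = 0.392). The 95% intervals of the other genes were −0.47 to 0.50 for C1s1, −0.04 to 1.40 for C4b, −0.98 to 0.74 for C3, −0.25 to 0.88 for Serping1 and −0.27 to 0.84 for C5ar1. The median over the 9 genes was 0.32 log2 units, and over all tested genes 0.02.

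At day 14, none of the 9 genes passed between Scx- and Scx+ mice in limma, where 0.517% of all tested genes passed in either direction, and at an unadjusted p under 0.05 there were 2 of 9 (C3ar1 and Cfb), against 14.6% of all tested genes. C3ar1 averaged 2060.1 ± 547 units in Scx- and 3888 ± 1047 in Scx+ mice (SD, n = 4 each), and every Scx- library lay below every Scx+ library. The difference was −0.92 ± 0.28 log2 units (adjusted p = 0.191, limma). It passed on the values as deposited (−1.16, adjusted p = 0.0268), a scale on which the median of all tested genes was −0.22, and with the macrophage covariate (−0.74, adjusted p = 0.00938). Of the 18 macrophage markers none passed at day 14, and their median difference was −0.22. Cfb averaged 7061 ± 1745 units in Scx- and 4998 ± 461 in Scx+ mice (SD, n = 4 each), higher in Scx- without overlap, with a difference of 0.47 ± 0.16 (adjusted p = 0.235, limma). No overlap in either direction occurred for 4.81% of all tested genes at day 14.

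The change of the genotype difference between the days was tested as an interaction. None of the 9 genes passed in limma, 0.018% of all tested genes did, and 1 of the 9 had an unadjusted p under 0.05, as 4.34% of all tested genes had. That gene was C3ar1, whose day 14 difference minus its day 7 difference came to −1.71 ± 0.40 log2 units (adjusted p = 0.231, unadjusted p = 0.000477, limma). The next in size was C2, at −0.57 ± 0.47 (adjusted p = 1). For Cfb the interaction was −0.43 ± 0.23, with a 95% interval of −0.91 to 0.06.

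**Figure D4:**
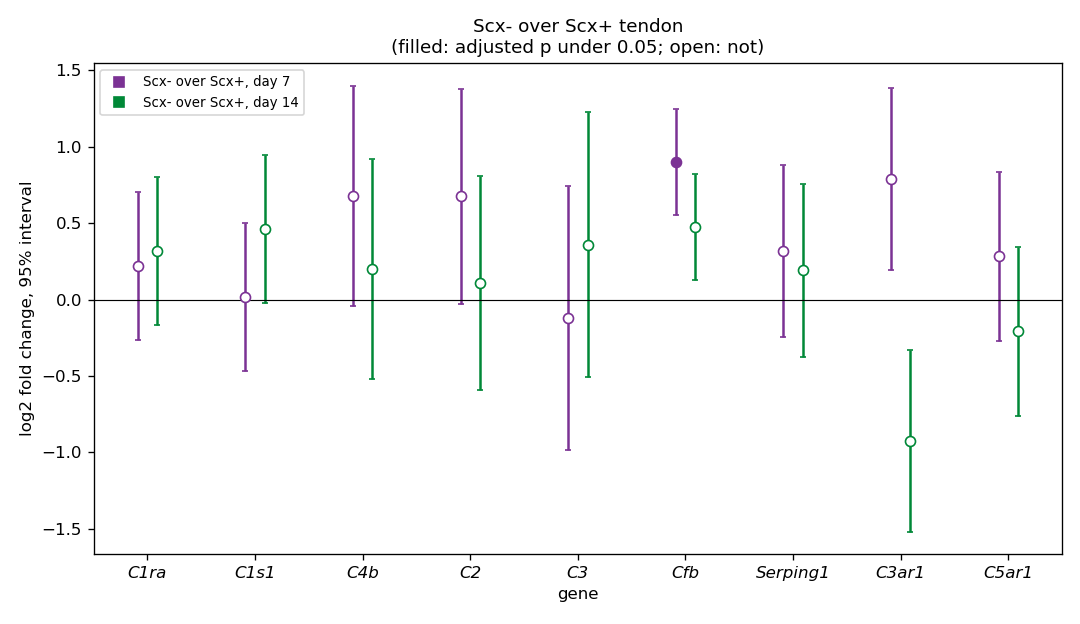
Log2 difference between Scx- and Scx+ mice, with its 95% interval, for the 9 complement genes at day 7 and day 14; filled points passed an adjusted p of 0.05 (limma). Cfb at day 7 (0.90) is the filled point, and C3ar1 lies above 0 at day 7 (0.79) and below 0 at day 14 (−0.92).

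Between day 14 and day 7, the receptors and Cfb fell in Scx- mice. There 3 of 9 genes were lower at day 14, where 3.86% of all tested genes were lower. C3ar1 averaged 2060.1 ± 547 units in Scx- mice at day 14 and 8809 ± 3414 in Scx- mice at day 7 (SD, n = 4 each), a 4.17-fold lower level (−2.06 ± 0.28 log2 units, adjusted p = 0.00043, limma). C5ar1 averaged 1064 ± 309.5 at day 14 and 2281 ± 778 at day 7 in Scx- mice (−1.09 ± 0.26, adjusted p = 0.0209). Neither receptor overlapped between the days, as was so for 12.5% of all tested genes. Cfb averaged 7061 ± 1745 at day 14 and 10486 ± 1940.1 at day 7 in Scx- mice (−0.58 ± 0.16, adjusted p = 0.0471), with overlap between the days.

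The Cfb call was lost when any one of Scx- day 7 or Scx- day 14 replicates 1, 2 or 4 was left out (adjusted p 0.0587 to 0.162, limma), and the C5ar1 call when Scx- day 14 replicate 1 or either of Scx- day 7 replicates 2 and 4 was left out (adjusted p 0.0799 to 0.0933). The Cfb call was also lost with trimmed means of M values (adjusted p = 0.0518), without a filter (adjusted p = 0.0557), with quality weights (adjusted p = 0.133), with the muscle covariate (−0.44, adjusted p = 0.174) and in a fit of only these 2 groups (adjusted p = 0.207, limma). The C5ar1 call was also lost with quality weights (adjusted p = 0.0666), with the muscle covariate (−1.02, adjusted p = 0.0653) and in a fit of only these 2 groups (adjusted p = 0.121, limma). Of the 18 macrophage markers, 10 were also lower at day 14 than at day 7 in Scx- mice. With their mean as a covariate, C3ar1 differed by −0.50 (adjusted p = 0.478, limma), Cfb by −0.15 (adjusted p = 0.893) and C5ar1 by 0.23. C1s1 (0.69 ± 0.23) and Serping1 (0.74 ± 0.27) missed the threshold in Scx- mice (adjusted p = 0.0866 and 0.117, limma). Without the 2 Scx- day 14 libraries richest in muscle RNA, replicates 1 and 2, C1ra, C1s1 and Serping1 were higher at day 14 (0.80, 1.21 and 1.15 log2 units), while Cfb (−0.36, adjusted p = 0.371) and C5ar1 (−0.81, adjusted p = 0.166, limma) no longer passed. C3ar1 still passed (−1.82, adjusted p = 0.0107, limma). C1s1 and Serping1 also passed without replicate 1 alone (0.90 and 1.0, adjusted p = 0.0368 and 0.0368, limma).

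In Scx+ mice none of the 9 genes passed between day 14 and day 7 in limma, where 0.0301% of all tested genes did, and 2 of 9 had an unadjusted p under 0.05, against 10.6% of all tested genes. Serping1 averaged 35518 ± 8597 units at day 14 and 19171 ± 2196 at day 7 in Scx+ mice (SD, n = 4 each), higher without overlap (0.86 ± 0.27 log2 units, adjusted p = 0.227, limma). C5ar1 averaged 1192 ± 190.2 at day 14 and 1814 ± 339.7 at day 7, lower without overlap (−0.60 ± 0.26, adjusted p = 0.425). C1s1 did not overlap either (0.25 ± 0.23, adjusted p = 0.758), which makes 3 of 9 genes, against 9.89% of all tested genes. C3ar1 differed by −0.35 ± 0.28 between the days in Scx+ mice (adjusted p = 0.728).

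In the authors' deposited table, 3 of the 9 genes were under an adjusted p of 0.05 between Scx- and Scx+ mice at day 7, namely Cfb (0.92 ± 0.16, adjusted p = 2.81e-06), C2 (0.70 ± 0.17, adjusted p = 0.00344) and C3ar1 (0.86 ± 0.26, adjusted p = 0.028), where 4.73% of the genes in that table were, and none at day 14, where 1.11% were. The authors' deposited table also has Serping1 (0.91 ± 0.20, adjusted p = 0.000744) and C5ar1 (−0.60 ± 0.19, adjusted p = 0.0438) under it between day 14 and day 7 in Scx+ mice, as 4.99% of its genes were. Between the days in Scx- mice the authors' deposited table holds C3ar1 (−2.12 ± 0.34, adjusted p = 8.67e-08) and C5ar1 (−1.08 ± 0.34, adjusted p = 0.0242) under the threshold, as 9.05% of its genes were, and not Cfb. Serping1 in Scx- mice at day 14 against the controls is not under it in the authors' deposited table (0.88 ± 0.39, adjusted p = 0.0728). For Scx+ mice at day 7 against the controls, C4b is under the threshold in the authors' deposited table (−0.80 ± 0.23, adjusted p = 0.000915).

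The wider cascade was read from a list of 51 other complement genes, of which 49 were listed and 40 tested. Against the controls, 15 of the 40 were higher and 10 lower in Scx- mice at day 7, where 32.3% of all tested genes were higher and 25.9% lower, and 16 were higher and 9 lower in Scx+ mice at day 7, against 33.8% and 27.5%. At day 14, 12 were higher and 6 lower in Scx- mice, against 25.5% and 18.3% of all tested genes, and 14 higher and 10 lower in Scx+ mice, against 30.9% and 25%. These counts lie near the shares of all tested genes. The 3 chains of C1q, the recognition molecule of the classical pathway, were higher in every stimulated group. C1qa averaged 21579 ± 8695 units in Scx- and 13115 ± 1433 in Scx+ mice at day 7, 9586 ± 3089 in Scx- and 9888 ± 1671 in Scx+ mice at day 14 (SD, n = 4 each), and 4017 ± 1690.3 in the controls (SD, n = 3), with differences of 2.43 ± 0.32, 1.79 ± 0.32, 1.27 ± 0.32 and 1.37 ± 0.32 log2 units. Colec12, a scavenger receptor of the collectin family, was also higher in all 4 groups, by 1.34 ± 0.36, 1.42 ± 0.36, 1.5 ± 0.36 and 1.71 ± 0.36 log2 units in the same order of groups.

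The most abundant genes that were lower were Cfd and Clu. Cfd, the gene of factor D (adipsin), which cleaves factor B and is made by fat cells, averaged 3601 ± 2375 units in Scx- and 888 ± 421 in Scx+ mice at day 7, 10302 ± 9750.5 in Scx- and 2935 ± 3026 in Scx+ mice at day 14, and 65630.0 ± 14197 in the controls. The differences were −4.98 ± 1.11, −6.30 ± 1.11, −3.23 ± 1.11 and −5.0 ± 1.11 log2 units (adjusted p = 0.0013, 0.000168, 0.0275 and 0.00138, limma). The adipocyte list, of which Cfd is 1 of 11 genes, had 10 members lower than in the controls in every stimulated group. It made up 0.0102 to 0.0548% (Scx-) and 0.00848 to 0.022% (Scx+) of a library's signal at day 7, 0.0271 to 0.11% (Scx-) and 0.0135 to 0.083% (Scx+) at day 14, and 0.237 to 0.298% in the controls, and its part in these results was not tested. Clu, the gene of clusterin, which holds back the terminal complex, differed by −4.11 ± 0.53, −2.86 ± 0.53, −2.66 ± 0.53 and −2.96 ± 0.53 log2 units in Scx- day 7, Scx+ day 7, Scx- day 14 and Scx+ day 14.

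Between the genotypes at day 7, 1 of these 40 genes passed, as lower in Scx- mice, where 0.337% of all tested genes were lower and 0.433% higher. At an unadjusted p under 0.05 (limma) there were 7 of 40, against 7.26% of all tested genes. Cd59a, a cell surface inhibitor of the terminal complex, held 628, 1148, 739 and 1367 units in Scx- and 2813, 2532, 2603 and 1845 in Scx+ libraries at day 7, and every Scx- library lay below every Scx+ library. The difference was −1.39 ± 0.26 log2 units (adjusted p = 0.0124, limma). At day 14 Cd59a held 1616, 914, 1390.4 and 1686 in Scx- and 2738, 3209, 3590.0 and 2061 in Scx+ libraries, a difference of −1.06 ± 0.26 that missed the threshold (adjusted p = 0.089). No gene of the list passed between the genotypes at day 14 in limma, with 2 of 40 at an unadjusted p under 0.05, against 14.6% of all tested genes, and none passed the interaction, with 3, against 4.34%. At day 14 against day 7, 7 of the 40 were lower in Scx- mice, where 3.86% of all tested genes were lower. The 6 most abundant of them were C1qa, C1qb, C1qc, the integrin genes Itgam and Itgb2 of complement receptor 3, and the properdin gene Cfp, with differences between −1.38 and −1.03 log2 units. Itgam is also 1 of the 18 genes of the macrophage and monocyte list, of which 10 were lower in the same comparison. The part of that list in this count was not tested. None passed between the days in Scx+ mice in limma, with 6 at an unadjusted p under 0.05, against 10.6% of all tested genes.

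The 9 genes were compared by how they varied over the libraries, without clustering. As a description over 19 libraries, which share their groups and scaling, Pearson's r of log2 signal was 0.96 between C3ar1 and C5ar1 (Spearman's rho 0.94), 0.94 between C1ra and C1s1 (rho 0.80) and 0.74 between C4b and C3 (rho 0.78). The controls stand apart from the rest for C1ra with C1s1. For C3ar1 with C5ar1 they do so except from Scx- day 14 replicate 1, which lies within their range for both genes. Over the 16 stimulated libraries r was 0.91, 0.88 and 0.73 for the 3 pairs in the order above. After the group means were taken out, r was 0.90, 0.80 and 0.87, and that between C1ra and Serping1 was 0.91, against 0.58 over all libraries. Over all libraries C1ra with C2 (0.87), C1s1 with C2 (0.84) and Cfb with C5ar1 (0.75) also had an r above that of C4b with C3. With the group means taken out these were 0.65, 0.69 and 0.55. C3 had an r between −0.25 and 0.03 with C1ra, C1s1, C2, Cfb, C3ar1 and C5ar1 over all libraries. After the group means were taken out, its r was 0.56 with Cfb, 0.31 with C2, 0.30 with C1ra, 0.13 with C1s1, 0.099 with C5ar1 and 0.014 with C3ar1.

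**Figure D5:**
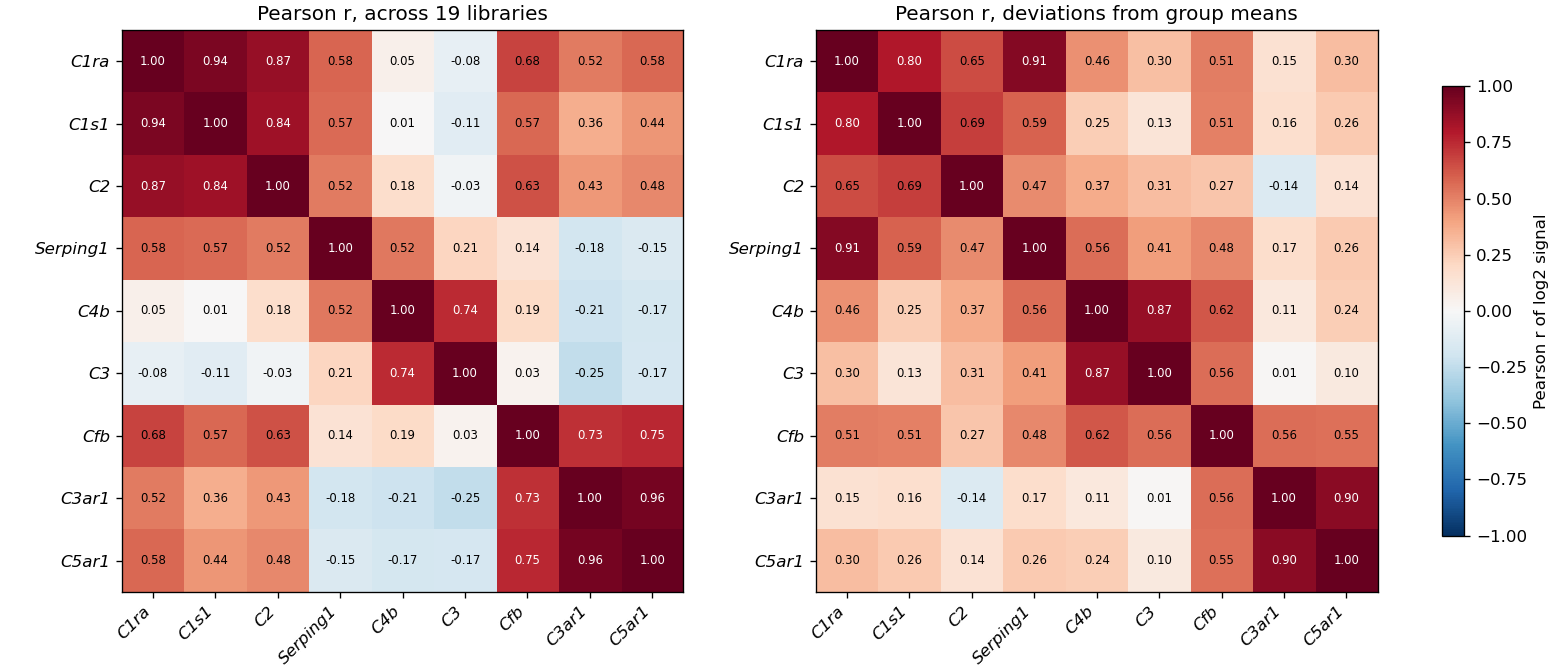
Pearson's r of log2 signal between the 9 complement genes over 19 libraries (left) and of the deviations from the group means (right), on a color scale from −1 to 1. C3ar1 with C5ar1 (0.96 left, 0.90 right), C1ra with C1s1 (0.94 left, 0.80 right) and C4b with C3 (0.74 left, 0.87 right) are among the darkest cells.

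Among 11200 genes averaging 5 ppm of the signal or more, the 3 whose log2 signal was most like that of each complement gene over 19 libraries were named as a description. For C3ar1 they were Nckap1l (r = 0.98), Pik3ap1 and Lacc1 (0.97 each), and for C5ar1 Laptm5, Adgre1, the macrophage marker F4/80, and Tlr8 (0.97 each). C1ra was most like Gas6 (0.95), C1s1 and Bicc1 (0.93), C1s1 most like C1ra, Sept11 and Steap3 (0.91 each for the last 2), and C2 most like Wisp2 (0.88), C1ra and Prss23 (0.85). Cfb was most like Tifa (0.93), Ncf4 (0.91) and Plekhf2 (0.90). Serping1 was most like Cygb (0.90), Apod and Zcchc24 (0.87 each). C3 was most like Lrg1 (0.83), Hp (0.82), the gene of the acute-phase protein haptoglobin, and Plin1 (0.80), a coat protein of fat droplets in adipocytes, and C4b most like Cdo1 (0.75), Cyp2e1 (0.75) and C3. After the group means were taken out, r for the genes named ran from 0.41 (Cfb with Ncf4) to 0.90 (C3 with Plin1). Over all 19 libraries, r with the mean of the macrophage list was 0.97 for C3ar1 and for C5ar1 and 0.80 for Cfb. With the mean of the interferon-induced list it was 0.86 for C3ar1, 0.81 for C5ar1 and 0.78 for Cfb. With the mean of the fibroblast list it was 0.87 for C1ra, 0.88 for C1s1 and 0.76 for C2. With the mean of the adipocyte list r was 0.69 for C3 and 0.66 for C4b, and with that of the hepatocyte list it was 0.59 for C3 and 0.67 for C4b. Only 4 of the 10 hepatocyte genes were tested and entered that mean, and Cyp2e1, named above for C4b, is 1 of them. Cyp2e1 reached 16468 units in a library, where Alb reached 981.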

How the data were processed

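RNA had been sequenced from 19 plantaris tendon libraries in 5 groups. The submitters' processing notes name FastQC, STAR, DESeq2 and the build mm10, with no version or role; strandedness and the handling of reads shared by gene copies are not given in the sources used here. The authors deposited a scaled signal per gene and library, which is not whole. Only 16.4% to 57.7% of low values lay within 0.1 of a whole multiple of the step of their library, where chance gives 20%, so whole reads were not recovered. The authors' second deposited table covers 15951 genes in 8 comparisons and gives adjusted p-values next to each log2 fold change and its error.

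Rescaling used medians of ratios from 13703 genes that no library had at 0 (factors 0.838 to 1.09). Of 24972 genes, 4029 were at 0 in every library, and the 16625 with at least 10 units in at least 3 libraries were tested as log2 of the value plus 2, so that fold changes of low genes are understated. All 5 groups entered 1 fit with limma 3.58.1 (R 4.3.3) with trend and robust moderation; Benjamini-Hochberg adjustment ran over all tested genes, and an adjusted p under 0.05 passed. The fit was also run on simulated data. The differences planted there were larger than most found here between genotypes or days, so that run does not show how such smaller differences are recovered. Errors are the SE of the fit or the SD of libraries, and 95% intervals use the quantiles of the moderated test.

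The 9 genes and all gene lists were chosen with earlier results of these data known. Other complement genes were named by rule: per comparison up to 6 past the threshold with the highest mean signal. Positions are from GENCODE M21 on GRCm38, lengths are merged exons, and upstream sequences are from RefSeq. Alternatives were other scalings, filters, pseudocounts of 0.5 and 8, fits without robust moderation, with quality weights, with only the groups compared, with a replicate block or a muscle covariate, and without single libraries or the muscle-rich pair; the macrophage covariate was added after seeing the data. Libraries with the same replicate number did not deviate together (36 pairs, r −0.43 to 0.35, 7 over 0.1), and no pair of libraries was identical (highest correlation 0.986).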

Additional observations from a re-analysis of the deposited data

Results flagged for a closer look

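Of 36 groups of 4 libraries tested for a single distant library among the 9 genes, 3 held one, where chance gives about 1 in 20 groups. C4b in Scx- mice at day 14 held 22587 units in replicate 3, far above the 8865 to 10896 of the others. C2 in Scx+ mice at day 7 held 1502 units in replicate 1, above the 1132 to 1172 of the others, and without it C2 no longer passed against the controls in that group (adjusted p = 0.0598, limma). C5ar1 in Scx- mice at day 14 held 604 units in replicate 1, below the 1165 to 1263 of the others, and that library is also the lowest of its group for C1ra, C1s1, Cfb, Serping1 and C3ar1.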

How the results depend on the processing

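Single-gene values that no sentence or figure reports were left out of the counts here and of the sign changes listed below. Of the values kept and recomputed under other settings, 856 kept direction and side of the threshold, 32 changed sign, 40 lost and 10 gained a call. Without single libraries 483 kept both, 18 changed sign, 19 lost and 4 gained a call. The cause was not tested for any change. The number of complement genes called moved as follows. Between the genotypes at day 7 it was 2 with quality weights (Cfb and C2), 0 with the macrophage covariate and 0 to 1 without single libraries, against 1. Between the genotypes at day 14 it was 1 (C3ar1) on the values as deposited and with the macrophage covariate and 0 without any single library, and the interaction count was 0 throughout. Against the controls the macrophage covariate gave 0 in Scx- and 0 in Scx+ mice at day 7 (C2 was 2.37 and 1.55 there, above its values without the covariate), and 3 in Scx- and 3 in Scx+ mice at day 14. In Scx- mice at day 14 the values as deposited gave 4. Without single libraries the counts against the controls were 6 to 6 in Scx- and 5 to 7 in Scx+ mice at day 7, and 4 to 7 in Scx- (4 without control replicate 2, which ends the calls of Serping1, C3ar1 and C5ar1) and 6 to 7 in Scx+ mice at day 14. Between day 14 and day 7 in Scx- mice the count was 1 with the muscle covariate, 1 with only the groups compared, 0 with the macrophage covariate and 1 to 3 without single libraries (1 without Scx- day 7 replicate 2 or 4), and in Scx+ mice 1 with quality weights (Serping1) and 0 without any single library.

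Outside the fit with the macrophage covariate, no value that changed sign had passed. With library totals, which put the median of all genes against the controls at 0.58 to 0.83 where it otherwise was 0.12 to 0.18, C4b against the controls was 0.53 in Scx- mice at day 7, 0.35 in Scx- and 0.28 in Scx+ mice at day 14. C3 was 0.23 in Scx- and 0.33 in Scx+ mice at day 7, 0.24 in Scx- and 0.014 in Scx+ mice at day 14, and Serping1 in Scx+ mice at day 7 was 0.36, all below the median gene. C2 between genotypes at day 14 was −0.022. On the values as deposited, C1s1 between genotypes at day 7 was −0.072, and at day 14 C4b was −0.041, C2 −0.13 and Serping1 −0.050; Serping1 in Scx- mice at day 7 against the controls was −0.074. With the macrophage covariate C5ar1 against the controls was −0.39, −0.16, −0.17 and −0.11 in Scx- day 7, Scx+ day 7, Scx- day 14 and Scx+ day 14, and C3ar1 in Scx- mice at day 14 was −0.28. In that fit C5ar1 at day 14 against day 7 was 0.23 in Scx- and 0.046 in Scx+ mice, C3ar1 0.42 in Scx+ mice, Serping1 against the controls −0.45 in Scx- mice at day 7, and between genotypes at day 7 C5ar1 was −0.23 and C1s1 −0.023. C3 between genotypes at day 7 was 0.058 with quality weights and 0.058 with the muscle covariate, which gave Serping1 −0.23 in Scx- mice at day 7 against the controls. Without the muscle-rich pair, C2's interaction was 0.081, C5ar1 between genotypes at day 14 0.075 and C4b in Scx- mice at day 14 against the controls 0.064.

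Without single libraries, the ranges of values that changed sign were, between genotypes at day 7, −0.042 to 0.11 for C1s1 and −0.46 to 0.42 for C3, the highest without Scx- day 7 replicate 3. Between genotypes at day 14 they were −0.16 to 0.38 for C2, −0.31 to 0.044 for C5ar1, −0.089 to 0.42 for C4b and −0.055 to 0.45 for Serping1. Against the controls they were −0.19 to 0.23 for Serping1, −0.39 to 0.17 for C4b and −0.80 to 0.078 for C3 in Scx- mice at day 7, and −0.41 to 0.035 for C4b in Scx- mice at day 14. With the replicate number as a block, which does not pair these samples, Serping1 in Scx- mice at day 7 against the controls was −0.021, and Cfb at day 14 against day 7 in Scx- mice (−0.58, adjusted p = 0.0877, limma) and Serping1 in Scx- mice at day 14 against the controls (0.71, adjusted p = 0.0846) lost their calls. The number of all genes called ran from 44 to 478 at day 7 and 8 to 991 at day 14 between genotypes, against 128 and 86. Other complement genes and marker lists were fitted in 1 setting. What depth limits could not be stated, since depth in reads is unknown.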
